A study of Mus musculus with 4 samples.

Results

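The genes described here are 7 transcripts of the B lineage: Igkc, Ighm, Jchain, Cd79a, Cd79b, Ms4a1 and Mzb1. They were chosen by name, as immunoglobulin, B cell and plasma cell genes, because the animals that received the cells lack lymphocytes. Of the 7 genes, 6 had a row among the 17476 genes of the table and all 6 entered the test over 14239 genes; Mzb1, a chaperone of antibody-secreting cells, had no row and was not analysed here. Jchain entered the test through its WT libraries alone. Igkc, Cd79a and Ms4a1 also needed WT libraries to pass the filter on reads, as their mutant libraries did not both reach its cutoff. Counts over the tested genes are therefore given as a description.

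The study set myeloid-derived suppressor cells (MDSCs, immature myeloid cells that restrain T cells) carrying a Trem2 mutation against wild-type (WT) cells. There were 2 Trem2 mutant libraries (grown in vitro from bone marrow of TREM2mut mice, numbered 1 and 3 by their columns) and 2 WT libraries (grown from bone marrow of C57/BL6 mice, numbered 1 and 2), and the strain label of all 4 samples is C57BL/6. In both genotypes the cultured cells were injected into male NRG mice, which were challenged under the skin with TRAMP-C1 mouse prostate tumour cells at 6 weeks of age and received the MDSCs 4 weeks later. Tumours were taken 6 h after the injection and digested for 45 minutes, and the sort kept CD45+, CD11B+ and GR1+ cells. No part of that gate tells injected cells from myeloid cells of the recipient. No source used here gives the kind of Trem2 mutation or the sex and age of the donors. Nor does any say that libraries of a genotype came from separate animals, cultures or pools, so the p-values reflect the spread of these 4 libraries alone and that spread may be technical.

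Antibodies are built from heavy and light chains whose genes are assembled by the RAG recombinase during B cell development. On the surface of a B cell the heavy chain, first of the mu class encoded by Ighm, sits with a light chain and with the signalling proteins Cd79a and Cd79b. A plasma cell secretes the antibody instead, and the Jchain protein links IgM and IgA units into polymers. NRG mice carry disrupted Rag1 and Il2rg genes and lack B, T and NK cells, whereas bone marrow of C57BL/6 mice holds B cells at many stages. Constant genes can also be transcribed before rearrangement, and a count over a constant gene does not separate such RNA from that of an assembled antibody.

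Library totals were 10306674 and 9820893 reads in Trem2 mutant 1 and 3 and 8037733 and 8077966 reads in WT 1 and 2. Levels are CPM, read counts put on a common library size after TMM scaling (which evens out composition between libraries), and 3 reads, used as a floor, corresponded to 0.322 to 0.359 CPM. Trem2 itself had 191 and 195 reads in the mutant and 406 and 477 reads in the WT libraries, so it was lower in the libraries labelled mutant (log2 fold change −1.14). Ptprc (CD45) was at 1328 and 1363 CPM in the mutant and 1114 and 1162 CPM in the WT libraries, and Itgam (CD11b) at 653 and 643 CPM in the mutant and 420 and 431 CPM in the WT libraries. Ly6g, which encodes a GR1 antigen, was at 144 and 123 CPM in the mutant and 5.66 and 7.22 CPM in the WT libraries. The X-linked RNA Xist had 6928 and 9117 reads in the mutant and 2 and 3 reads in the WT libraries. Xist is made by female cells, so the sex of the sorted cells ran with genotype, and sex and genotype cannot be told apart in any difference given here. The rRNA-overlapping locus Gm42418 took 13.9% of the reads of Trem2 mutant 1, 0.418% of Trem2 mutant 3, 1.04% of WT 1 and 0.258% of WT 2.

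Most reads of the 6 genes lay over immunoglobulin constant genes, whose sequences decide how well they can be told apart. The first 300 bases of the Igkc coding exon (chr6:70726435-70726734, plus strand, GRCm38, GENCODE M21) are shown because this gene carried the clearest difference. It had no close relative among the light chain genes: its coding exon was 53.9% identical to those of Iglc1 and Iglc2, and the longest run shared with either was 8 bases.
Igkc: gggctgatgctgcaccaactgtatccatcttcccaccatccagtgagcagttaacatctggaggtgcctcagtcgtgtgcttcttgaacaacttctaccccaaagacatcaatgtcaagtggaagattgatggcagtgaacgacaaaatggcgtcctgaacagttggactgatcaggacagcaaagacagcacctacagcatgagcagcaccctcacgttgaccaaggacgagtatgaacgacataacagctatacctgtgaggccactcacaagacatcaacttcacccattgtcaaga

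Stretches of 60 bases from the start of the coding sequence, lined up within each set, are given for the IgG heavy chain genes and the lambda light chain genes (all minus strand, same build) because members of each set resemble one another. Capitals mark bases that differ from the first sequence of the set. The IgG genes are Ighg1 (chr12:113330464-113330523), Ighg2b (chr12:113307874-113307933), Ighg2c (chr12:113288873-113288932) and Ighg3 (chr12:113361173-113361232), and over the whole first coding exon Ighg1 was 88.3% identical to Ighg2b, 88.0% to Ighg2c and 79.0% to Ighg3. Within that exon the longest run Ighg1 shared with any of them was 37 bases, shorter than the 75 cycles sequenced. The other exons of these genes were not compared.
Ighg1: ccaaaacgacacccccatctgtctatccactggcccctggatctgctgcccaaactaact
Ighg2b: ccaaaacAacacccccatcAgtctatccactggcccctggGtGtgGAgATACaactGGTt
Ighg2c: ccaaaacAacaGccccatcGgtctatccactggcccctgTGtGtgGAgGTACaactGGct
Ighg3: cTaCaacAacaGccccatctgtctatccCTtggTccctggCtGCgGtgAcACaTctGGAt
The lambda genes are Iglc3 (chr16:19065622-19065681), Iglc2 (chr16:19198793-19198852) and Iglc1 (chr16:19062012-19062071). Iglc2 and Iglc3 were 96.2% identical over the coding exon with a shared run of 79 bases, so the split of reads between this pair is uncertain.
Iglc3: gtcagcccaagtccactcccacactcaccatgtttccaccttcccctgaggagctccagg
Iglc2: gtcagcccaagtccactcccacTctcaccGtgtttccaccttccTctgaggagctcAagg
Iglc1: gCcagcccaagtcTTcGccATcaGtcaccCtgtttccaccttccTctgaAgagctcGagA

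Igkc and Jchain were called lower in the Trem2 mutant libraries, and the other 4 genes did not pass the test. Jchain entered the test through its WT libraries alone, and Igkc, Cd79a and Ms4a1 also needed WT libraries. The counts in this paragraph are therefore a description. Of the 6 tested genes, 2 were called lower and 0 higher (edgeR quasi-likelihood test, adjusted p under 0.05), where 3.60% of all tested genes were called lower and 9.55% higher. Among the 8365 tested genes with between 25 and 877 reads in all, the range these 6 genes span, 2.28% were called lower. With library totals as the only scaling the whole table gave 650 higher and 4365 lower calls, in place of 1360 and 513. At an unadjusted p under 0.05, 3 of the 6 were lower and 0 higher, against 12.6% of all tested genes lower and 17.5% higher. DESeq2 called 1 lower and 0 higher with no adjusted p for Jchain, against 1.45% of all genes lower and 7.77% higher, and limma-voom called 2 lower and 0 higher, against 3.34% lower and 9.30% higher. All 6 had a log2 fold change below 0, as did 52.7% of all tested genes, and in 5 of them both mutant libraries lay below both WT libraries, against 31.7% of all tested genes. The median log2 fold change was −0.96 over the 6 genes and −0.02 over all tested genes.

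Igkc (ENSMUSG00000076609, chromosome 6, 70726435 to 70726966) encodes the constant part of the kappa light chain, which most mouse antibodies carry. It had 10 and 13 reads in Trem2 mutant 1 and 3, against 50 and 87 reads in WT 1 and 2. The groups did not overlap, and WT 2 stood above WT 1. Its level was 1.30 ± 0.141 CPM in the mutant and 7.48 ± 2.89 CPM in the WT libraries (SD, n = 2 each), a log2 fold change of −2.51 (SE 0.385, edgeR quasi-likelihood test, adjusted p = 0.00592), or 5.70-fold lower. That was the 9th lowest log2 fold change of the 14239 tested genes. The call held with each library left out in turn, with log2 fold changes between −2.86 and −2.05, the smaller change without WT 2. The gene overlaps the span of the noncoding gene Gm30211, with which it shares 0 exon bases.

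Ighm (ENSMUSG00000076617, chromosome 12, 113418558 to 113422730), the constant gene of the mu heavy chain, was the most abundant of the 6 genes. It had 192 and 151 reads in Trem2 mutant 1 and 3, against 277 and 257 reads in WT 1 and 2. The groups did not overlap, and the mutant libraries differed from each other more than the WT libraries did. Its level was 19.6 ± 4.79 CPM in the mutant and 29.1 ± 1.41 CPM in the WT libraries (SD, n = 2 each), and the log2 fold change of −0.58 (SE 0.169) did not pass (edgeR quasi-likelihood test, adjusted p = 0.0641). It passed without Trem2 mutant 1, at −0.84 (edgeR adjusted p = 0.00246), and was −0.33 without Trem2 mutant 3. The membrane and secreted forms of the mu chain cannot be separated by this count.

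Reads of the kappa gene were few relative to those of the mu gene in the mutant libraries. There were 5.21 and 8.61 Igkc reads per 100 Ighm reads in Trem2 mutant 1 and 3, and 18.1 and 33.9 in WT 1 and 2. The groups did not overlap in this ratio, whose difference was not tested. Per kilobase of exons, Igkc stood at 2.25 and 2.63 CPM per kb in the mutant libraries and at 10.2 and 17.9 CPM per kb in the WT libraries, while Ighm stood at 12.2 and 8.60 CPM per kb in the mutant libraries and at 16.0 and 14.9 CPM per kb in the WT libraries. In the WT libraries the levels of this pair per kilobase overlapped, and in the mutant libraries Ighm lay above Igkc in both.

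Jchain (ENSMUSG00000067149, chromosome 5, 88519809 to 88527891) encodes the joining chain of polymeric antibodies. It had 0 and 2 reads in Trem2 mutant 1 and 3, against 12 and 11 reads in WT 1 and 2. The groups did not overlap, the WT libraries were alike, and both mutant libraries were under the floor of 3 reads. The fitted log2 fold change of Jchain, −3.32 (SE 0.788), passed (edgeR quasi-likelihood test, adjusted p = 0.0321), but it is a value that depends on the treatment of the low counts. After scaling the summed reads for library size, the WT to mutant ratio was 11.1, with a 95% interval of 2.74 to 96.9 that covers counting error only. The call was lost without WT 1 (edgeR adjusted p = 0.148) and without WT 2 (edgeR adjusted p = 0.0991), where the log2 fold changes were −3.26 and −3.38.

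**Figure D1:**
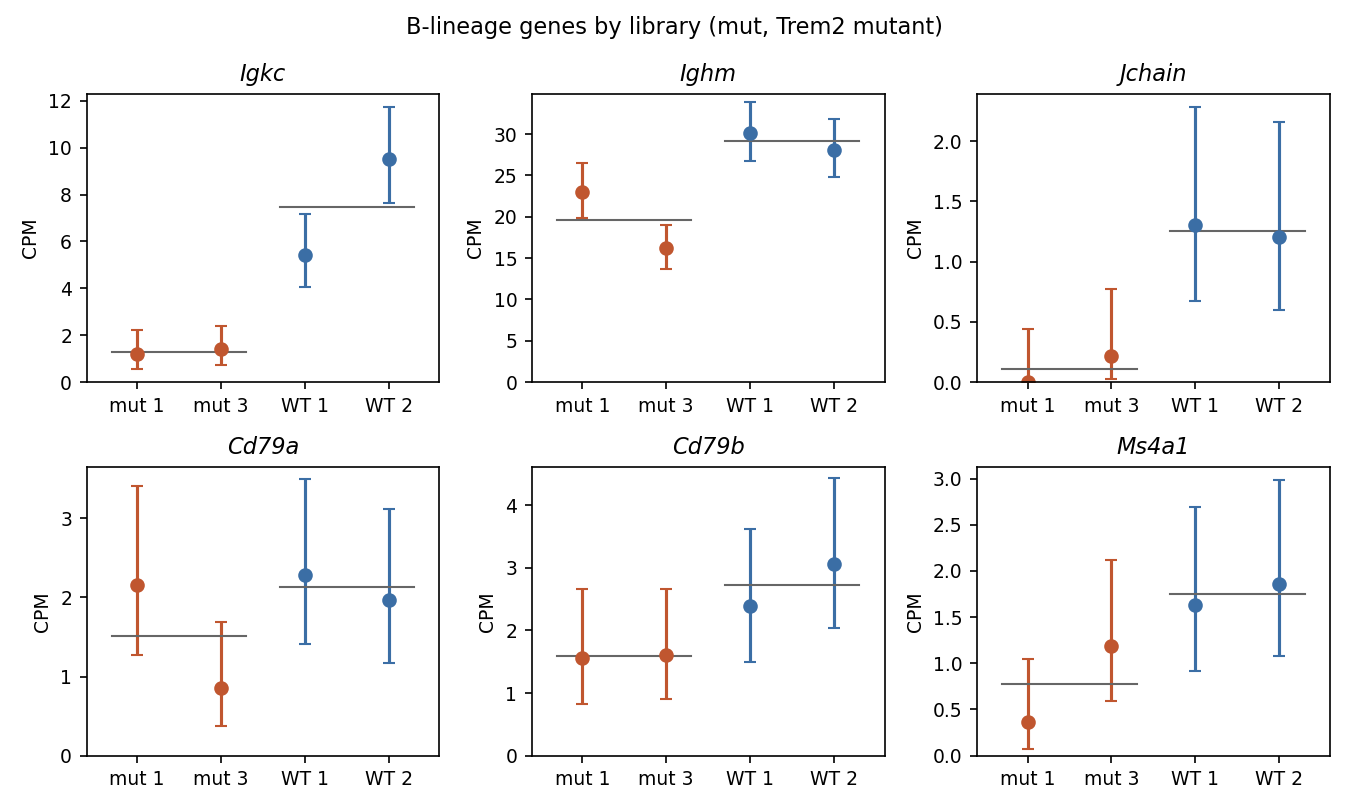
TMM-scaled CPM of the 6 B-lineage genes in each library. Points are libraries (mut, Trem2 mutant), vertical bars are 95% exact counting intervals and grey lines are group means. The CPM axes differ between genes. In all of the 6 genes but Cd79a both mutant libraries lay below both WT libraries, as they did in 31.7% of all tested genes.

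The genes of the B cell receptor's signalling pair were low and did not pass. Cd79b (ENSMUSG00000040592, chromosome 11, 106311341 to 106314762) had 13 and 15 reads in Trem2 mutant 1 and 3, against 22 and 28 reads in WT 1 and 2. The groups did not overlap, at 1.58 ± 0.0387 CPM in the mutant and 2.73 ± 0.475 CPM in the WT libraries (SD, n = 2 each; log2 fold change −0.78, SE 0.343, edgeR quasi-likelihood test, adjusted p = 0.174). Cd79a (ENSMUSG00000003379, chromosome 7, 24897381 to 24902197) had 18 and 8 reads in Trem2 mutant 1 and 3, against 21 and 18 reads in WT 1 and 2. Trem2 mutant 1 lay among the WT libraries and Trem2 mutant 3 below them (log2 fold change −0.52, SE 0.465, edgeR quasi-likelihood test, adjusted p = 0.495). Without Trem2 mutant 3 the log2 fold change of Cd79a was 0.034.

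Ms4a1 (ENSMUSG00000024673, chromosome 19, 11249675 to 11266241) encodes CD20, a surface protein of B cells and a member of the MS4A family. It had 3 and 11 reads in Trem2 mutant 1 and 3, against 15 and 17 reads in WT 1 and 2. The groups did not overlap, but Trem2 mutant 1 and 3 stood far apart at 0.359 and 1.18 CPM, and the log2 fold change of −1.13 (SE 0.529) did not pass (edgeR quasi-likelihood test, adjusted p = 0.197). It was −2.22 without Trem2 mutant 3, where it passed (edgeR adjusted p = 0.0335), and −0.55 without Trem2 mutant 1. The gene overlaps the span of an antisense gene, 4930526L06Rik, with which it shares 0 exon bases and which has no row. Mzb1 shares 695 exon bases with the gene model SPATA24, so its reads could have been ambiguous.

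Compared per kilobase of exons, the order in the mutant libraries was Ighm (10.4 ± 2.54 CPM per kb), Igkc (2.44 ± 0.265), Cd79b (1.11 ± 0.0271), Cd79a (1.04 ± 0.629), Ms4a1 (0.125 ± 0.0940) and Jchain (0.0427 ± 0.0604). In the WT libraries it was Ighm (15.4 ± 0.750 CPM per kb), Igkc (14.1 ± 5.43), Cd79b (1.91 ± 0.332), Cd79a (1.46 ± 0.152), Jchain (0.499 ± 0.0285) and Ms4a1 (0.282 ± 0.0262; SD, n = 2 each throughout). Cd79b and Cd79a overlapped in the mutant libraries, as did Ms4a1 and Jchain, while in the WT libraries Ighm and Igkc overlapped. Summed over the 6 genes, reads came to 236 and 200 in Trem2 mutant 1 and 3 and to 397 and 418 in WT 1 and 2. In bulk libraries, fewer cells of the B lineage and less of this RNA per cell cannot be told apart.

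**Figure D2:**
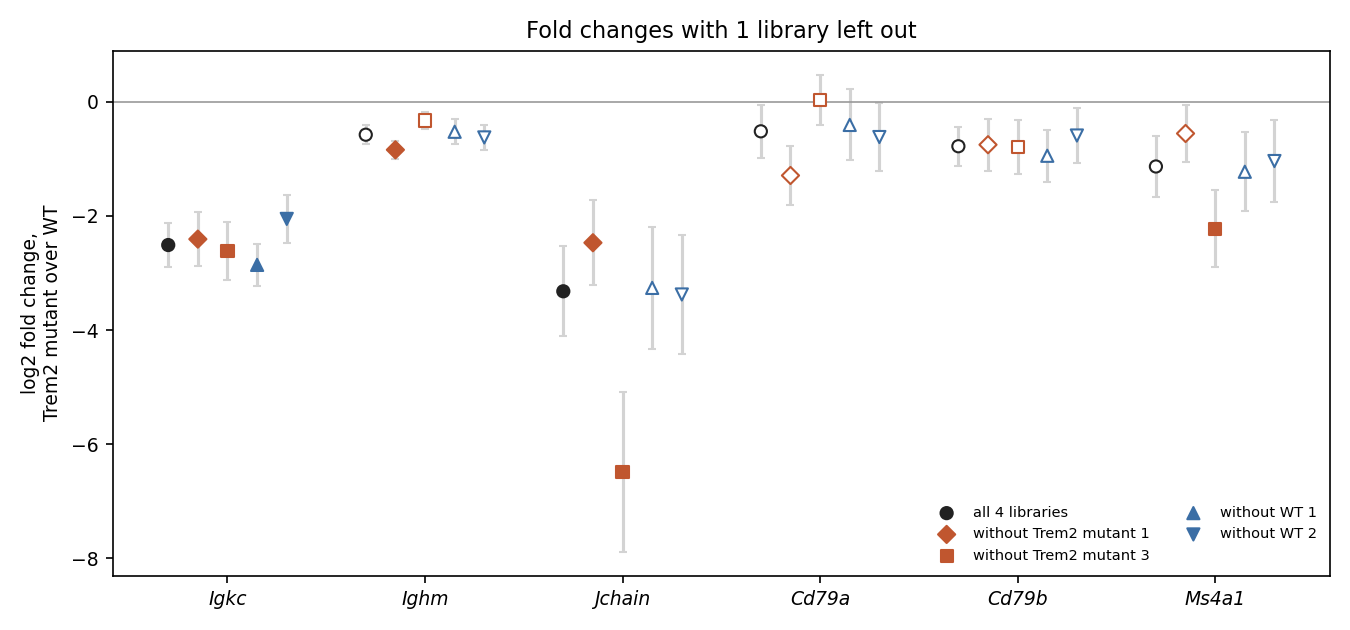
Log2 fold change (Trem2 mutant over WT) of each gene with all 4 libraries and with 1 library left out. Bars are standard errors and filled symbols passed the test at an adjusted p of 0.05; Igkc passed in all 5 fits, and the Jchain value of −6.49 without Trem2 mutant 3 is a fit against a mutant library with 0 reads.

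Reads of the class-switched heavy chain genes came almost entirely from WT 2. Of 14 annotated immunoglobulin constant genes and constant pseudogenes, 8 had a row, and only Igkc and Ighm entered the test. Ighg1, the heavy chain constant gene of IgG1, had 0 and 0 reads in the mutant libraries, against 2 and 39 reads in WT 1 and 2. Igha, that of IgA, had 0 and 0 reads in the mutant libraries, against 0 and 24 reads in WT 1 and 2. WT 2 stood apart in both genes while WT 1 was under the floor of 3 reads, so the difference rests on WT 2 alone. A count of 0 allows up to 3 reads in a library, which is 0.359 CPM in Trem2 mutant 1 and 0.322 CPM in Trem2 mutant 3.

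The delta heavy chain gene Ighd, which naive B cells express together with the mu gene, had 6 and 3 reads in the mutant libraries and 4 and 19 reads in WT 1 and 2. WT 2 was again the highest library, while WT 1 lay among the mutant libraries. The lambda constant genes Iglc1, Iglc2 and Iglc3 together had 9 and 6 reads in the mutant libraries and 12 and 13 reads in WT 1 and 2, and Iglv1 had 2 and 4 reads in the mutant libraries and 5 and 10 reads in WT 1 and 2. Without Ighm, the constant genes summed to 25 and 22 reads in the mutant libraries and 68 and 182 reads in WT 1 and 2. Without Ighm and Igkc they summed to 15 and 9 reads in the mutant libraries and 18 and 95 reads in WT 1 and 2, so that beside Ighm it was Igkc by which WT 1 stood clear of the mutant libraries.

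**Figure D3:**
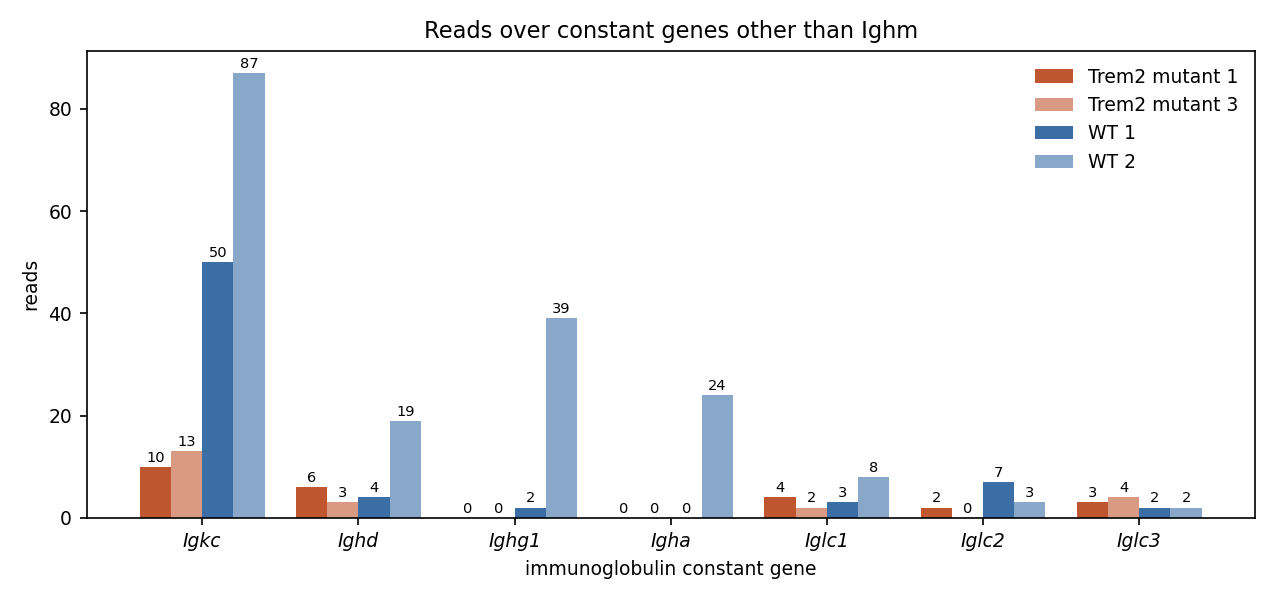
Reads in each library over the 7 immunoglobulin constant genes with a row other than Ighm, with the counts printed above the bars. Igkc is higher in both WT libraries, while Ighg1, Igha and Ighd are high in WT 2 alone.

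Reads over heavy chain variable genes did not follow the constant genes. Of 418 annotated variable, diversity and joining genes and pseudogenes, 10 had a row, 9 of them heavy chain variable genes. Those 9 together had 90 and 91 reads in the mutant libraries and 60 and 81 reads in WT 1 and 2. Ighv8-10, annotated as a pseudogene, had 32 and 31 reads in the mutant libraries and 24 and 39 reads in WT 1 and 2, and Ighv1-64 had 19 and 30 reads in the mutant libraries and 16 and 19 reads in WT 1 and 2. Neither passed (edgeR quasi-likelihood test, log2 fold changes 0.06 and 0.53, adjusted p = 0.929 and 0.348). Together with Ighv1-63 they lie within 24158 bases of chromosome 12 (115495625 to 115519782) and made up 54 and 66 of the mutant reads and 42 and 66 of the reads of WT 1 and 2.

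Ighv1-41, annotated as a pseudogene, ran the other way, with 15 and 10 reads in the mutant libraries and 2 and 5 reads in WT 1 and 2. Ighv8-4 had 8 and 5 reads in the mutant libraries and 0 and 0 reads in WT 1 and 2, whereas Ighv10-3 had 0 and 0 reads in the mutant libraries and 10 and 3 reads in WT 1 and 2. These genes did not enter the test, and members of the heavy chain variable families resemble one another, so their reads may be shared.

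Most other genes of B cell identity did not pass. Of 24 genes of B cell identity and receptor signalling, 22 had a row and 18 were tested; 1 fell, 2 rose and 15 did not pass (edgeR quasi-likelihood test), with a median log2 fold change of 0.27. These shares lie near those of all tested genes, 3.60% lower and 9.55% higher. Cd22, an inhibitory lectin receptor of B cells, had 71 and 56 reads in the mutant libraries and 130 and 115 reads in WT 1 and 2 (log2 fold change −0.89, SE 0.215, edgeR adjusted p = 0.0345). The call of Cd22 was lost without WT 1 (edgeR adjusted p = 0.182), without WT 2 (0.0819), without Trem2 mutant 3 (0.0732) and with DESeq2 (0.0815), and an antisense gene overlaps it. Bank1, a scaffold of B cell receptor signalling, rose, with 100 and 114 reads in the mutant libraries and 31 and 39 reads in WT 1 and 2 (log2 fold change 1.66, edgeR adjusted p = 0.00311). The tetraspanin gene Cd37 rose less, at 208 ± 4.54 CPM in the mutant and 160 ± 6.96 CPM in the WT libraries (SD, n = 2 each, log2 fold change 0.38, edgeR adjusted p = 0.0206), and its call was lost without WT 1 (edgeR adjusted p = 0.194) and without WT 2 (0.0824). With library totals as the only scaling, Cd37 had a log2 fold change of 0.0052. Without Trem2 mutant 1, and likewise without Trem2 mutant 3, 4 genes of the list rose, and without WT 1 only Bank1 did.

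Several genes closely tied to B cell identity were near the detection limit. Pou2af1, a coactivator of immunoglobulin transcription, had 5 and 3 reads in the mutant libraries and 10 and 17 reads in WT 1 and 2 (log2 fold change −1.67, edgeR adjusted p = 0.0893). Both mutant libraries lay below both WT libraries in Pou2af1, but it did not pass. The transcription factor gene Pax5 overlapped between groups, with 7 and 12 reads in the mutant libraries and 9 and 18 reads in WT 1 and 2. Ebf1, another such gene, had 14 and 16 reads in the mutant libraries and 14 and 11 reads in WT 1 and 2, did not overlap in CPM and did not pass (log2 fold change 0.31, edgeR adjusted p = 0.615). Fcmr, an IgM receptor gene, had 1 and 6 reads in the mutant libraries and 8 and 11 reads in WT 1 and 2, and was not tested. Blk and Tnfrsf13c had no row. Btk and Cd83, which myeloid cells also express, were far more abundant and did not pass.

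Of 13 genes of early B cells and of recombination, 8 were tested. They gave 1 rise and 0 falls (edgeR quasi-likelihood test), where 9.55% of all tested genes were called higher and 3.60% lower. At an unadjusted p under 0.05, 5 were higher and 1 lower, where 17.5% of all tested genes were higher and 12.6% lower, and DESeq2 and limma-voom each gave 1 rise and 0 falls. The rise was that of Erg, a transcription factor gene also active in endothelial and progenitor cells, with 141 and 91 reads in the mutant libraries and 30 and 36 reads in WT 1 and 2 (log2 fold change 1.88, edgeR adjusted p = 0.00816). Vpreb1, part of the surrogate light chain of pre-B cells, had 9 and 11 reads in the mutant libraries and 17 and 12 reads in WT 1 and 2 (edgeR adjusted p = 0.470). Igll1, Vpreb2, Vpreb3, Dntt and Rag2 had no row. The genes disrupted in NRG mice were both read: Rag1 had 16 and 18 reads in the mutant libraries and 9 and 8 reads in WT 1 and 2, and Il2rg had 518 and 581 reads in the mutant libraries and 540 and 507 reads in WT 1 and 2. Neither passed (edgeR quasi-likelihood test, adjusted p = 0.118 and 0.385), and a count over the gene does not show whether its transcript is intact.

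Most genes of plasma cells and antibody secretion did not pass, and those that passed rose, whereas Igkc and Jchain were called lower. Of 15 genes, 14 had a row and 12 were tested. By the edgeR quasi-likelihood test 4 rose, 0 fell and 8 did not pass, with a median log2 fold change of 0.26. None fell at an unadjusted p under 0.05, with DESeq2 or with limma-voom, and 1 fell with library totals alone. Among all tested genes edgeR called 9.55% higher and 3.60% lower. At an unadjusted p under 0.05, 17.5% of all tested genes were higher and 12.6% lower. Xbp1, a transcription factor gene of secretory cells, was at 371 ± 43.7 CPM in the mutant and 201 ± 2.97 CPM in the WT libraries (SD, n = 2 each, log2 fold change 0.88, edgeR adjusted p = 0.00171). Irf4 rose 1.73-fold, the elongation factor gene Ell2 1.63-fold and the disulfide isomerase gene Txndc5 2.03-fold. The call of Txndc5 depended on which libraries were kept. Its log2 fold change was 1.02 with all libraries, 0.76 without Trem2 mutant 1 and 1.27 without Trem2 mutant 3. All 4 also act outside plasma cells. Without WT 1 only Xbp1 and Irf4 rose, and with library totals alone the calls of Irf4 (edgeR adjusted p = 0.0602) and Ell2 (0.0966) were lost. Sdc1 (CD138), the surface mark of plasma cells, had 92 and 39 reads in the mutant libraries and 14 and 27 reads in WT 1 and 2 and did not pass (edgeR adjusted p = 0.0641). Prdm1 had 253 and 199 reads in the mutant libraries and 138 and 222 reads in WT 1 and 2 (edgeR adjusted p = 0.324). Derl3 had 5 and 5 reads in the mutant libraries and 8 and 2 reads in WT 1 and 2, and Tnfrsf17 (BCMA) had no row.

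Transcripts of other lymphocytes were as sparse, and most did not differ by the test. Of 20 T cell genes, 12 had a row and 7 were tested; 1 rose, 0 fell and 6 did not pass (edgeR quasi-likelihood test). At an unadjusted p under 0.05, 2 rose and 0 fell, and DESeq2 and limma-voom called 0 of the 7. Among all tested genes edgeR called 9.55% higher and 3.60% lower, or 17.5% and 12.6% at an unadjusted p under 0.05. The summed level of the T cell genes was 32.5 and 34.7 CPM in the mutant libraries and 33.1 and 34.5 CPM in WT 1 and 2. The rise was Thy1, which fibroblasts also express (47 and 40 reads in the mutant libraries, 22 and 20 reads in WT 1 and 2, edgeR adjusted p = 0.0478); its call was lost with any library but Trem2 mutant 3 left out, and with DESeq2, limma-voom, library totals alone or no filter. Cd3d had 40 and 63 reads in the mutant libraries and 68 and 71 reads in WT 1 and 2, while Cd3e, Cd3g, Cd8a, Cd8b1, Trbc1 and Trbc2 had no row. Of 15 NK and innate lymphoid genes, 3 had a row (Gata3, Klrb1c and Rora). Only Rora was tested, and it passed neither the edgeR quasi-likelihood test nor an unadjusted p under 0.05, DESeq2 or limma-voom. Their summed level was 8.03 and 7.85 CPM in the mutant libraries and 5.33 and 6.13 CPM in WT 1 and 2.

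Plasmacytoid dendritic cells express some B-lineage transcripts, and most of their markers did not pass. Of 15 such genes, 11 had a row and 8 were tested; 1 rose (Runx2, log2 fold change 0.37, edgeR adjusted p = 0.0281), 0 fell and 7 did not pass. At an unadjusted p under 0.05, and with limma-voom, 1 rose and 1 fell. Among all tested genes edgeR called 9.55% higher and 3.60% lower, or 17.5% and 12.6% at an unadjusted p under 0.05. With library totals alone the log2 fold change of Runx2 was −0.0019, and its call was lost without WT 1 (edgeR adjusted p = 0.156), without WT 2 (0.186) and with DESeq2 (0.115). The summed level was 641 and 664 CPM in the mutant libraries and 745 and 757 CPM in WT 1 and 2, most of it from Zeb2, a gene also expressed in other myeloid cells. Siglech, a defining marker, had no row, and Ccr9 had 16 and 17 reads in the mutant libraries and 12 and 13 reads in WT 1 and 2.

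**Figure D4:**
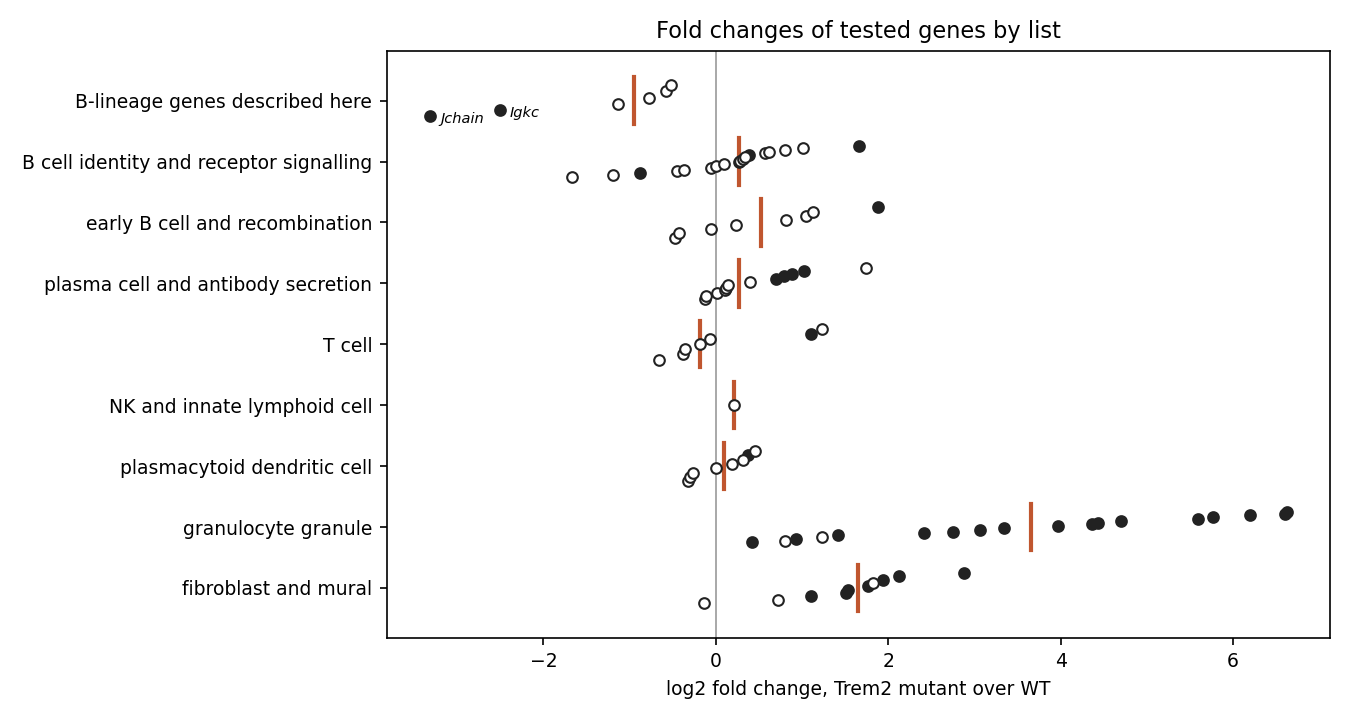
Log2 fold change (Trem2 mutant over WT) of every tested gene of 9 gene lists. Each point is a gene, filled where it passed the test at an adjusted p of 0.05, and red lines are list medians; among the B-lineage genes Jchain and Igkc passed, while granulocyte granule genes lie furthest to the right.

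Markers of other cells moved with genotype beside these results. Among all tested genes edgeR called 9.55% higher and 3.60% lower, or 17.5% and 12.6% at an unadjusted p under 0.05. Of 18 granulocyte granule genes, 16 rose and 0 fell (edgeR quasi-likelihood test; none fell at an unadjusted p under 0.05, with DESeq2 or with limma-voom), and their summed level was 36576 and 29006 CPM in the mutant libraries and 5852 and 5605 CPM in WT 1 and 2. Of 12 fibroblast and mural cell genes, 10 were tested, 7 rose and 0 fell, and none fell by those other counts, with a summed level of 1452 and 905 CPM in the mutant libraries and 412 and 458 CPM in WT 1 and 2. Without WT 1, 4 fibroblast genes rose. Of 14 monocyte and macrophage genes, 7 rose and 0 fell (2 rose without WT 1 and 11 without Trem2 mutant 3; 3 fell at an unadjusted p under 0.05, 0 with DESeq2 and 1 with limma-voom), with a summed level of 6229 and 7689 CPM in the mutant libraries and 3817 and 4309 CPM in WT 1 and 2. The part of these shifts in the lower Igkc and Jchain counts was not tested.

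The 5 tested genes whose pattern over the 4 libraries was nearest to that of Igkc were Dnah6, Stra6l, Gm13710, Iqck and Gm43909, by Euclidean distance of centred log2 CPM (0.487 to 0.687). None of the 5 is an immunoglobulin gene, but beside Igkc only Ighm, Ighv8-10 and Ighv1-64 entered the test. The other immunoglobulin genes could therefore not appear among them. Dnah6, which encodes a ciliary dynein heavy chain, had 8 and 9 reads in the mutant libraries and 43 and 48 reads in WT 1 and 2, and Stra6l had 18 and 23 reads in the mutant libraries and 79 and 92 reads in WT 1 and 2.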

How the data were processed

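The data are 4 RNA-seq libraries of MDSCs sorted from tumours. Per the labels' protocols, RNA was depleted of rRNA and sequenced on a NextSeq 500. The authors deposited raw counts of reads per Ensembl gene. The submitters' processing notes name FastQC, STAR 2.5.2a, DESeq2 and build GRCm38 (mm10), without roles. No source used here names the read counter, strand setting or annotation release. The smallest total in the table was 11 reads. Of 17476 IDs, 17422 matched GENCODE M21, which gave names, classes, positions, exon lengths and sequences. The column of Trem2 mutant 3 carries a number that no label has, so it entered as an unnumbered mutant library.

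The test used edgeR 4.0.16 in R 4.3.3, with filterByExpr, TMM scaling and the quasi-likelihood test (default form, genotype only, two-sided, 14239 genes, Benjamini-Hochberg at 0.05). Degrees of freedom were 2 (residual) and 5.71 (prior), at a common biological coefficient of variation of 0.106. The fit was tested on simulated data. A standard error is the size of the log2 fold change over the root of its F. CPM are TMM-scaled, with intervals (95%, exact) and the floor of 3 reads covering counting error only. With 2 libraries against 2, an exact permutation test cannot go below p = 0.333, so none was run.

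The genes and 12 lists were chosen with earlier results of these data known. Named genes were the 7 B-lineage genes, the immunoglobulin constant genes with a row, the 4 variable genes with most reads, up to 4 called members of each list, lymphocyte list members with at least 10 reads (given in part; 1 result is not reported here), Rag1, Rag2, Il2rg and the 5 genes nearest to Igkc (log2 CPM with a prior count of 2). Ighv1-41, Ighv8-4, Ighv10-3 and Ighv1-63 were named after their values were seen. Faim3, an older name of Fcmr, was counted once. Alternatives were RLE scaling, library totals alone, no filter, a stricter filter (10 or more reads in 2 or more libraries, mean CPM of 1 or more), DESeq2 1.42.0, limma-voom (limma 3.58.1), the bias-adjusted quasi-likelihood form, leaving out 4428 noncoding and mitochondrial genes, and leaving out each library.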

Additional observations from a re-analysis of the deposited data

How the results depend on the processing

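Of the 6 B-lineage genes, 2 were called with all 4 libraries. Library totals alone gave 5 calls, but that scaling moved the median log2 fold change of all tested genes to −0.40; the stricter filter gave 1, without Jchain, and DESeq2 gave 1, with no adjusted p for Jchain. With 1 library left out the count ranged from 1 (without WT 1, and without WT 2) to 3. RLE scaling, no filter, limma-voom, the bias-adjusted form and the fit without noncoding and mitochondrial genes gave 2. Igkc kept its direction and its call under all 12 alternatives. Among all tested genes the calls numbered 1873, or 5015 with library totals alone, and 654 to 2954 with 1 library left out, the lowest without WT 1 and the highest without Trem2 mutant 3. Lower calls numbered 513, or 198 with DESeq2, 898 without Trem2 mutant 3, 146 without WT 2 and 102 without WT 1. With 1 library left out, Cd79a ran from −1.29 to 0.034 (log2 fold change), above 0 without Trem2 mutant 3, and Pax5 from −0.87 to 0.13, above 0 without WT 2. With library totals alone Il2rg (−0.25) and Runx2 (−0.0019) also reversed. The cause was not tested, except that library totals alone shift all genes. Leaving out 1 library takes the remaining library of that genotype to vary as the other genotype does. No paired analysis was possible because the columns of the genotypes share only the number 1. Jchain, Ms4a1, Cd79a and Cd79b had between 0 and 28 reads in a library, and the smallest difference that this depth could show was not tested.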

Other observations

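T cell receptor genes were as sparse as the untested immunoglobulin genes. Of 270 annotated genes and pseudogenes, 3 had a row: Trac had 5 and 1 reads in the mutant libraries and 3 and 2 reads in WT 1 and 2, Trbv1 had 14 and 13 reads in the mutant libraries and 6 and 11 reads in WT 1 and 2, and Trbv23 had 7 and 10 reads in the mutant libraries and 0 and 1 reads in WT 1 and 2. Klrb1c (NK1.1), a receptor of NK cells in C57BL/6 mice, had 0 and 19 reads in Trem2 mutant 1 and 3 and 1 and 1 reads in WT 1 and 2, so its reads came almost entirely from Trem2 mutant 3.

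Erythroid transcripts differed between libraries of a genotype. The summed level of 5 such genes was 61.5 and 168 CPM in Trem2 mutant 1 and 3 and 6.74 and 27.9 CPM in WT 1 and 2. Among all tested genes edgeR called 9.55% higher and 3.60% lower. Of 4 tested erythroid genes, 3 rose and 0 fell (edgeR quasi-likelihood test; 1 rose without WT 1 and 1 with DESeq2); none fell at an unadjusted p under 0.05, with DESeq2 or with limma-voom. WT 2 was above WT 1 in these transcripts, as it was in Ighg1 and Igha, and Trem2 mutant 3, the highest library, had 0 reads of both; any link between them was not tested.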
